A study of Mus musculus with 7 samples.

Results

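Mitochondrial ribosomal protein genes were measured in kidneys of male mice by RNA sequencing. The genes were taken from the deposited expression table by name: protein-coding genes whose symbol starts with Mrpl (large subunit of the mitochondrial ribosome) or Mrps (small subunit) followed by a number. This gave 77 genes, 48 Mrpl and 29 Mrps, out of 18797 genes in that table. All 77 passed the filter on low counts and are among the 15394 genes tested. The 3 wild-type (WT) libraries, replicates 1, 2 and 4, came from animals labelled wild type. The 4 double knockout (DKO) libraries, replicates 1 to 4, came from animals labelled as lacking Hs3st3a1 and Hs3st3b1, which encode enzymes that add 3-O-sulfate to heparan sulfate. The labels give neither strain nor age, and the deleted part of each gene was not used here.

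Mitochondria carry their own ribosomes, which translate the few messenger RNAs of the mitochondrial genome, all of them for membrane subunits of the respiratory chain and ATP synthase. The ribosomal RNAs are made inside the mitochondrion, whereas every protein of the ribosome is encoded in the nucleus, translated in the cytoplasm and imported. Many of these proteins descend from bacterial ribosomal proteins and others have no counterpart in the bacterial ribosome. Kidney tubules, the proximal tubule above all, depend on mitochondrial respiration to drive solute transport.

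Total counts were 18330929 to 24259400 per library. Hs3st3a1 was at 0.568 to 1.51 CPM (counts divided by the TMM-adjusted library size and scaled alike in every library) in WT and at 0 to 0.122 CPM in DKO, and reads of a neomycin resistance cassette were 0 in every WT library and 73 to 125 in the DKO libraries. Hs3st3b1 ranged from 2.91 to 5.30 CPM over the WT libraries and from 1.45 to 5.57 CPM over the DKO libraries, so the count over the whole gene does not separate the groups. Markers of the kidney were abundant in both groups, with a summed level of 10 proximal tubule genes of 15414 to 21457 CPM. WT replicate 4 was the WT library farthest from the DKO libraries, with a chi-square statistic per gene of 149 to 207 against them. Between WT replicate 4 and WT replicates 1 and 2 the statistic was 74.2 and 97.5. Those 2 values lie within the range among the other 6 libraries, 40.8 to 100, which includes pairs of a WT with a DKO library. Within groups, WT replicates 1 and 2 had a lower value, 47.6, and pairs of DKO libraries had 40.8 to 81.6. For each gene whose fold change is given and moved by over 1.5 times without WT replicate 4, that value is given too.

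The start regions of 5 members are shown because mitochondrial ribosomal protein genes are known for promoters without a TATA box that hold sites of nuclear respiratory factors. Those factors are GABP, an ETS-family factor also called NRF-2, and NRF-1. The sequences are the 250 bases before the RefSeq start site (GRCm38.p6), on the gene's own strand, for 5 members among those with the smallest unadjusted p in the comparison of DKO with WT. They were picked after the values were seen, with Mrpl46 included as a member without the ETS or NRF1 letters. The Mrpl46 stretch also holds the letters TATAAA, the short form of a TATA box, which are not in capitals. That stretch lies inside the annotated gene, whose own start is at 78783531, and overlaps the start of the head-to-head gene Mrps11 at 78783119. The letters found or missing there need not describe the main promoter of Mrpl46. Capitals mark the ETS letters CCGGAAG or the NRF1 letters GCGCANGCG (N stands for any base), on either strand. Mrpl46 lies at chr7:78783090-78783339 (minus strand), Mrps22 at chr9:98601680-98601929 (minus), Mrpl57 at chr14:57825989-57826238 (plus), Mrpl12 at chr11:120484387-120484636 (plus) and Mrpl22 at chr11:58171414-58171663 (plus).
Mrpl46: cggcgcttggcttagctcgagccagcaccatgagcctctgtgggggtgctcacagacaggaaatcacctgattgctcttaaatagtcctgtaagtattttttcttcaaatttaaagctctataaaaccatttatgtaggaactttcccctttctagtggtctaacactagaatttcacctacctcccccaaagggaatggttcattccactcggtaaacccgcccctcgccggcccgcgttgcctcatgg
Mrps22: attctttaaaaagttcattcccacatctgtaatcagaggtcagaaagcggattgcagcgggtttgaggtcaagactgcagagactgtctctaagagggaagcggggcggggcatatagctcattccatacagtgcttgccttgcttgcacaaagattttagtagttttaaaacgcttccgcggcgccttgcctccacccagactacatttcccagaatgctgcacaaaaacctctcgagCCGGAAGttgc
Mrpl57: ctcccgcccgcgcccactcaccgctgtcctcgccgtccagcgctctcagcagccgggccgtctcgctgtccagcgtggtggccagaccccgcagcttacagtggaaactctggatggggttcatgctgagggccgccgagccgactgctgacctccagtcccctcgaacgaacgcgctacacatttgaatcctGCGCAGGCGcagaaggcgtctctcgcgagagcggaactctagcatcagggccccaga
Mrpl12: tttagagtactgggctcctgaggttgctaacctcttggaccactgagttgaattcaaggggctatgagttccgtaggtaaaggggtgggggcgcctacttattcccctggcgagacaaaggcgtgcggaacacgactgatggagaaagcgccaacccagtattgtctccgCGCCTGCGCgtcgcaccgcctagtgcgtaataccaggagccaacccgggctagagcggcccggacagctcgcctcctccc
Mrpl22: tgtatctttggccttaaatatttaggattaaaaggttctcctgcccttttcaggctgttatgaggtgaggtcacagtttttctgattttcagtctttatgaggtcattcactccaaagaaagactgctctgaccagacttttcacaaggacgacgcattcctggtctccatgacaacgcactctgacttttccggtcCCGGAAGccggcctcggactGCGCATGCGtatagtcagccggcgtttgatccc

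In these windows the ETS match of Mrps22 begins 11 bases before the start site and that of Mrpl22 begins 53 bases before it. The NRF1 matches of Mrpl22, Mrpl57 and Mrpl12 begin 33, 57 and 80 bases before it, and Mrpl57 also has an ETS match just after its start, outside the printed stretch. RefSeq windows (the 250 bases before and 50 after the start) were found for 68 of the 77 members. The ETS letters were in 25 of these 68 (36.8%), against 18.8% of 10574 tested protein-coding genes and 9.93% of all 27025 genes with a window. The NRF1 letters were in 16 (23.5%), against 14.1% and 7.03%. For the YY1 letters AAGATGGCG the count was 8 (11.8%), against 3.34% and 1.64%. At least 1 of these 3 motifs was in 41 members (60.3%), against 31.8% of tested protein-coding genes. A TATA box in its short form TATAAA was in 5 members (7.35%), Mrpl46 among them, against 9.29% of the tested genes. The GGGCGG letters bound by Sp factors were in 34 of the 68, against 66.5% of the tested genes. A match describes the letters only and is not a measured site, and a pair of motifs can overlap.

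Transcripts of nearly all mitochondrial ribosomal proteins were lower on average in DKO kidneys. The fitted log2 fold change of DKO against WT was below 0 for 75 of 77 genes, against 46.8% of all tested genes, and its median was -0.47, against 0.04 for all tested genes. An unadjusted p under 0.05 in edgeR's quasi-likelihood test was reached by 49 members (63.6%) with a lower level in DKO and by 0 with a higher one. Over all tested genes those shares were 11.3% and 9.86%. After Benjamini-Hochberg adjustment over all 15394 genes, 0 genes were called (0%), members included, and the smallest adjusted p of a member was 0.163. DESeq2 called 23 members lower and 0 higher at an adjusted p under 0.05, against 2.92% and 1.44% of all tested genes, and limma-voom called 0. In the plot of fold changes of all members, only Mrps2 (0.10) and Mrps18b (0.01, or -0.01 with DESeq2) have values above 0.

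**Figure D1:**
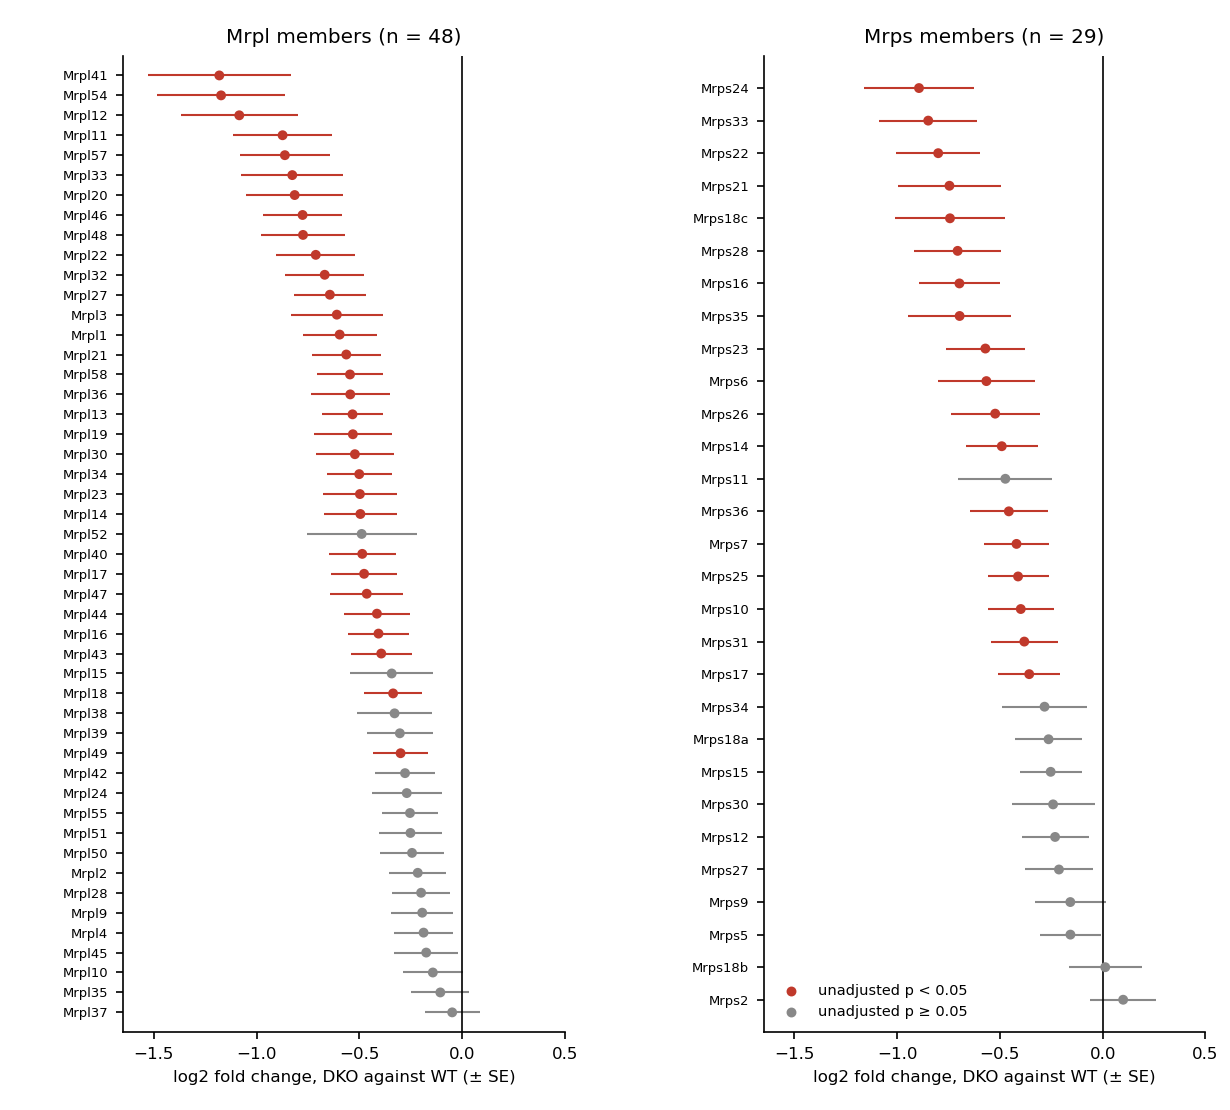
Fitted log2 fold change of DKO (n = 4) against WT (n = 3) with its standard error for the 48 Mrpl members (left) and the 29 Mrps members (right), ordered by value; red marks an unadjusted p under 0.05. All 48 Mrpl values and 27 of the 29 Mrps values lie below 0.

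The size of the difference followed the libraries as well as the genotype. Members summed to 7825, 8164 and 10294 CPM in WT replicates 1, 2 and 4. In DKO replicates 1 to 4 they summed to 7050, 5579, 6094 and 6698 CPM, so the groups do not overlap. As shares of all counts these sums were between 0.579% and 0.962%. The mean sums were 8761 ± 1338 CPM over WT (SD, n = 3) against 6355 ± 651 CPM over DKO (SD, n = 4). WT replicate 4 held the highest value of 57 members and DKO replicate 2 the lowest value of 52. Without WT replicate 4, all 77 members had a fold change below 0 with a median of -0.33, and 27 (35.1%) were lower at an unadjusted p under 0.05, against 4.45% of all genes tested in that fit. Leaving out DKO replicate 2 gave a median of -0.39 and 29 such members (37.7%), against 7% of all genes. In whole tissue, fewer cells of a type and less RNA per cell cannot be told apart.

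**Figure D2:**
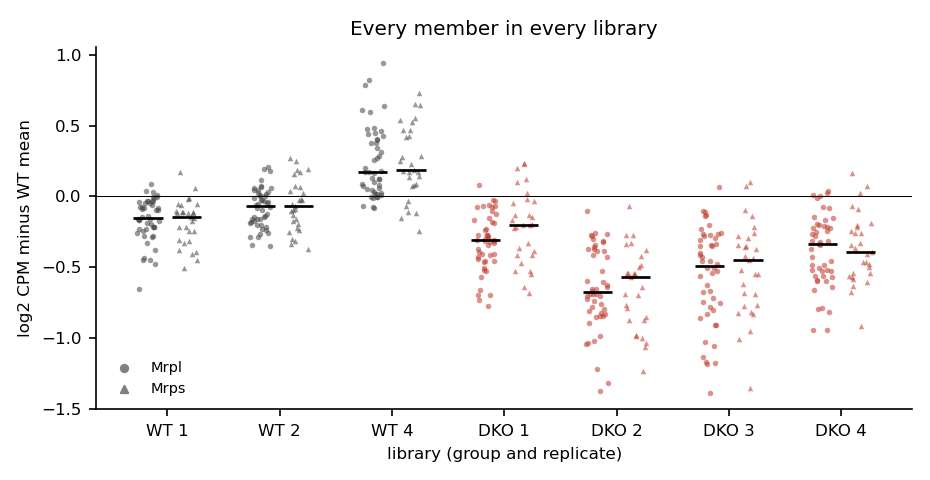
Log2 CPM of each member minus its WT mean in each of the 7 libraries, circles for Mrpl and triangles for Mrps, with black bars at the medians. The members' median over both subunits is -0.14, -0.07 and 0.18 in WT replicates 1, 2 and 4 and -0.29, -0.65, -0.48 and -0.36 in DKO replicates 1 to 4.

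For 46 members (59.7%) every DKO library was below every WT library, against 9.04% of all tested genes. For 0 members was every DKO library above every WT library, against 8.34%. DKO replicate 1 was the library that most often broke the separation: it was above the lowest WT library for 25 members, against 1 for DKO replicate 2, 9 for replicate 3 and 14 for replicate 4. The lowest WT library was replicate 1 for 49 members, replicate 2 for 22 and replicate 4 for 6.

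Large-subunit proteins with bacterial relatives numbered 30. All 30 had a fold change below 0, 21 with an unadjusted p under 0.05, and their median was -0.50. Mrpl12 (ENSMUSG00000039640, chr11:120484613-120489065 on GRCm38, 5 merged exons) is the mitochondrial relative of the bacterial stalk protein L7/L12, which recruits translation factors to the ribosome. It was at 149, 160 and 351 CPM in WT replicates 1, 2 and 4. In DKO replicates 1 to 4 it was at 125, 87.1, 97.3 and 105 CPM. Every DKO library was below every WT library, and WT replicate 4 was well above the rest of its group. The log2 fold change was -1.08 (SE 0.28), with an adjusted p of 0.163 in edgeR and 0.0218 in DESeq2, and it was -0.58 without WT replicate 4. Its partner in the stalk, Mrpl10, which anchors Mrpl12 to the ribosome, averaged 62.6 ± 3.01 CPM over WT (SD, n = 3), against 56.7 ± 6.56 CPM over DKO (SD, n = 4). For Mrpl10 the groups overlap and the log2 fold change was -0.14 (SE 0.15, edgeR adjusted p = 0.586).

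Mrpl22 (ENSMUSG00000020514, chr11:58171661-58179565) is the relative of bacterial L22, a protein that lines the exit tunnel of the growing chain. It was at 75.3, 78.3 and 113 CPM in WT and at 63.5, 51.7, 42.9 and 59.3 CPM in DKO. The groups do not overlap, and the log2 fold change was -0.71 (SE 0.19, edgeR adjusted p = 0.163, DESeq2 adjusted p = 0.0294). Mrpl27, the relative of bacterial L27 near the peptidyl transferase centre, was at 79.7, 82.5 and 116 CPM in WT and at 68.9, 56.6, 51.4 and 60.3 CPM in DKO. These libraries were again separate, at a log2 fold change of -0.64 (SE 0.18). Mrpl34, the highest member per kilobase of merged exon, was at 255 CPM per kb in WT, and at 146, 155 and 164 CPM in WT against 108, 97.4, 100 and 133 CPM in DKO. Its WT libraries lay close together, and its log2 fold change of -0.50 (SE 0.16) was -0.46 without WT replicate 4.

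Levels in WT ran from 3.67 CPM per kb for Mrpl3 to 255 for Mrpl34, with a median of 39.4 CPM per kb over the 77 members. Mrpl3 and Mrpl23, with 3.74 CPM per kb, were the lowest. The log2 fold change of Mrpl23 was -0.50 (SE 0.18), or -0.33 without WT replicate 4. Mrpl3, mutated in a human mitochondrial cardiomyopathy, was at 17.3, 23.2 and 32.9 CPM in WT and 19.6, 13.2, 16.4 and 15 CPM in DKO. DKO replicate 1 overlaps the WT range there, and the log2 fold change was -0.61 (SE 0.22, edgeR adjusted p = 0.179), or -0.34 without WT replicate 4. Mrpl14, at 176 CPM per kb, had a log2 fold change of -0.49 (SE 0.18) with 1 DKO library inside the WT range. Merged exons include rare long transcripts, so a level per kb is low for a gene with such a transcript.

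The other 18 large-subunit proteins are classed here as without a counterpart in the bacterial ribosome, although Mrpl58 belongs to a family of bacterial release factors. They also all had a fold change below 0, with 10 at an unadjusted p under 0.05 and a median of -0.40. Mrpl46 (ENSMUSG00000030612, chr7:78775236-78783531) had the smallest unadjusted p of all members. It was at 98.8, 105 and 168 CPM in WT and at 72.2, 68.4, 68.9 and 79.5 CPM in DKO. The 4 DKO libraries lay within a narrow range below every WT library. Its log2 fold change was -0.78 (SE 0.19, unadjusted p = 0.00207, edgeR adjusted p = 0.163, DESeq2 adjusted p = 0.0218), and without WT replicate 4 it was -0.50. Mrpl46 and the small-subunit gene Mrps11 lie head to head and share 173 exonic bases, and the library kit did not mark the strand. Reads in that stretch cannot be told apart between the pair. Mrps11 had a log2 fold change of -0.47 (SE 0.23), or -0.16 without WT replicate 4, and overlapping groups.

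Mrpl57 (ENSMUSG00000021967, chr14:57826234-57829296) was at 61.9, 61.0 and 98.1 CPM in WT and at 52.9, 35.0, 32.7 and 41.4 CPM in DKO. Its groups do not overlap, and its log2 fold change was -0.86 (SE 0.22, edgeR adjusted p = 0.163, DESeq2 adjusted p = 0.0237). Without the filter on low counts Mrpl57 was the 1 member called by edgeR, with an adjusted p of 0.0481, where 28 of 27440 genes (0.102%) were called lower. Mrpl41 was at 97.0, 125 and 292 CPM in WT and at 96.4, 58.9, 67.9 and 79.1 CPM in DKO. DKO replicate 1 and WT replicate 1 nearly met, and the log2 fold change of -1.18 (SE 0.35), the lowest of all members, was -0.56 without WT replicate 4. Mrpl48 had a log2 fold change of -0.77 (SE 0.20), or -0.51 without WT replicate 4, with separate groups.

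Among these 18 proteins were also members with small differences. Mrpl50, with 383 ± 42.2 CPM over WT (SD, n = 3) against 324 ± 22.2 CPM over DKO (SD, n = 4), had a log2 fold change of -0.24 (SE 0.16). Mrpl45, which holds the ribosome to the inner membrane near the tunnel exit, averaged 226 ± 12.9 CPM over WT, against 200 ± 24.3 CPM over DKO with overlapping groups. Mrpl37 was at 88.2, 92.8 and 89.1 CPM in WT and at 85.5, 83.7, 94.1 and 85.1 CPM in DKO. Its libraries intermixed, and its log2 fold change of -0.05 (SE 0.13) was the highest among Mrpl members. By contrast Mrpl58, a peptidyl-tRNA hydrolase built into the large subunit that rescues stalled ribosomes, was at 131, 127 and 137 CPM in WT and at 107, 73.3, 89.5 and 92.0 CPM in DKO. Its WT libraries agree closely and lie above every DKO library, with a log2 fold change of -0.55 (SE 0.16, DESeq2 adjusted p = 0.0317).

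**Figure D3:**
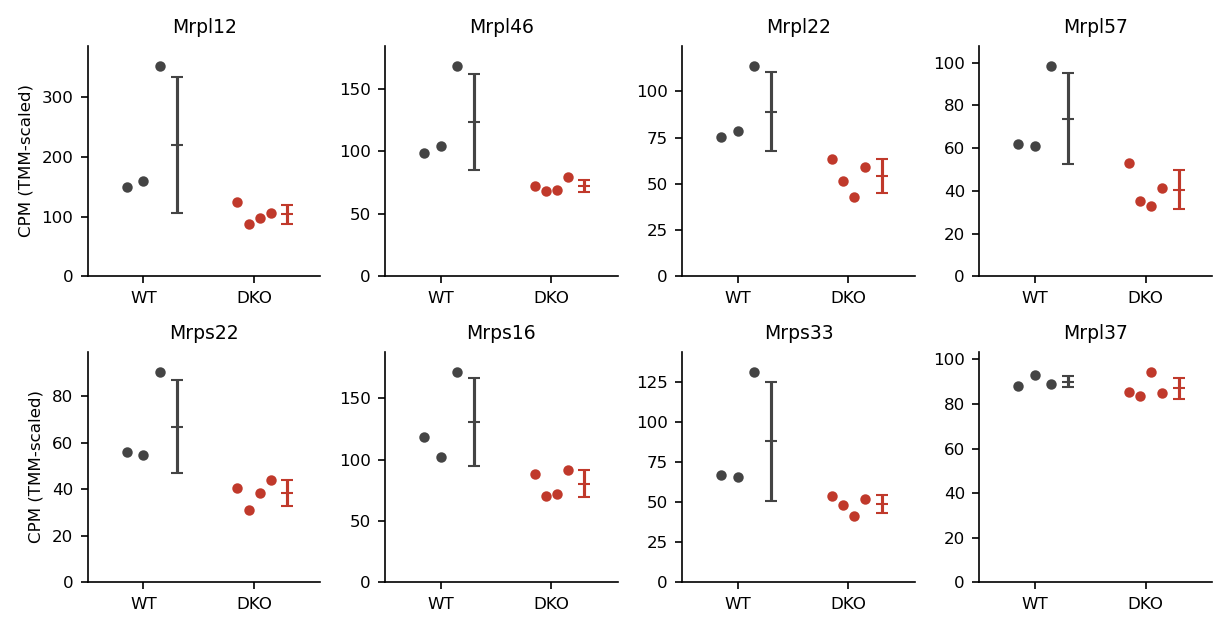
CPM of 8 members in each library (points; WT grey, DKO red) with mean and SD beside them; each axis starts at 0. For Mrpl12, Mrpl46, Mrpl22, Mrpl57, Mrps22, Mrps16 and Mrps33 every DKO point lies below every WT point, while the points of Mrpl37 intermix.

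Small-subunit proteins classed with bacterial relatives numbered 17 by name. Mrps18b, a relative of bacterial S18, is not among them and is counted in the other class. Mrps18a, also a relative of S18, is among the 17 although it sits in the large subunit in the solved structure. Of the 17 proteins, 16 had a fold change below 0, 10 at an unadjusted p under 0.05, with a median of -0.42. Mrps16 (ENSMUSG00000049960, chr14:20389304-20393634), mutated in a human respiratory chain disease, was at 118, 102 and 171 CPM in WT and at 88.4, 70.6, 71.7 and 91.3 CPM in DKO. All DKO values were below all WT values, and the log2 fold change was -0.70 (SE 0.20, edgeR adjusted p = 0.163, DESeq2 adjusted p = 0.0306), or -0.46 without WT replicate 4. Mrps24 was at 108, 121 and 224 CPM in WT and at 107, 61.0, 81.0 and 76.0 CPM in DKO. DKO replicate 1 lay just below WT replicate 1, and the log2 fold change of -0.89 (SE 0.27) was -0.50 without WT replicate 4. For Mrps28 the values were 51.0, 49.0 and 88.6 CPM in WT and 41.9, 33.1, 37.5 and 41.6 CPM in DKO, at a log2 fold change of -0.71 (SE 0.21) and -0.38 without WT replicate 4.

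Mrps21 and Mrps6 had the highest levels per kb of this class, at 225 and 184 CPM per kb in WT. Mrps21 was at 132, 167 and 200 CPM in WT and at 112, 82.9, 64.3 and 138 CPM in DKO, where DKO replicate 4 lies inside the WT range. Mrps6 was at 255, 212 and 379 CPM in WT and at 218, 133, 225 and 185 CPM in DKO. The groups of Mrps6 overlap, its log2 fold change was -0.57 (SE 0.24), or -0.30 without WT replicate 4, and 19.9% of its exonic bases are shared with other genes. Mrps2 was at 29.7, 35.7 and 25.3 CPM in WT and at 35.2, 28.5, 32.2 and 33.6 CPM in DKO. It had the highest fold change of all members, 0.10 (SE 0.16), with intermixed libraries, and -0.02 without WT replicate 4.

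Another 11 small-subunit proteins by name were classed as without a counterpart at their place in the bacterial ribosome. Of these 10 had a fold change below 0 and 7 an unadjusted p under 0.05, with a median of -0.41. The class holds Mrps18b, a relative of bacterial S18, and Mrps30, a large-subunit protein in the solved structure, and the other 9 were all below 0 with a median of -0.52. Mrps22 (ENSMUSG00000032459, chr9:98588730-98601660), a protein whose loss in patients causes a mitochondrial disease that can include kidney tubule dysfunction, was at 55.9, 54.6 and 90.1 CPM in WT. In DKO it was at 40.4, 31.1, 38.2 and 43.8 CPM. The groups are separate, and the log2 fold change was -0.80 (SE 0.20, edgeR adjusted p = 0.163, DESeq2 adjusted p = 0.0239), or -0.53 without WT replicate 4. Mrps33 was at 66.8, 65.8 and 131 CPM in WT and at 53.5, 48.2, 41.3 and 52.0 CPM in DKO. It was likewise separate, with a log2 fold change of -0.85 (SE 0.24) that was -0.45 without WT replicate 4. Mrps23 was at 69.9, 73.3 and 95.3 CPM in WT and at 67.6, 40.0, 53.9 and 52.5 CPM in DKO, where DKO replicate 1 came close to WT replicate 1.

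Mammals have 3 relatives of bacterial S18, and they differed in level and in fold change. Mrps18c, which takes the place of S18 in the small subunit, was at 48.6, 59.1 and 114 CPM in WT and at 49.7, 42.6, 35.7 and 48.8 CPM in DKO. DKO replicates 1 and 4 overlap WT replicate 1, and the log2 fold change of -0.74 (SE 0.27) was -0.29 without WT replicate 4. Mrps18b averaged 28.4 ± 4.79 CPM over WT (SD, n = 3), against 28.6 ± 4.46 CPM over DKO (SD, n = 4), at a log2 fold change of 0.01 (SE 0.18). This value was -0.01 under DESeq2 scaling and -0.07 without WT replicate 4, and 30.5% of the exonic bases of Mrps18b are shared with Gm16279. Mrps18a, which sits in the large subunit despite its name, averaged 140 ± 15.3 CPM over WT, against 117 ± 16.8 CPM over DKO, with overlapping groups and a log2 fold change of -0.26 (SE 0.16). The differences between these paralogs were not tested.

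Mrps30, described above as a large-subunit protein by structure, averaged 31.1 ± 6.51 CPM over WT (SD, n = 3), against 26.3 ± 5.41 CPM over DKO (SD, n = 4), a log2 fold change of -0.24 (SE 0.20), or -0.16 without WT replicate 4. Mrps36, now assigned to the 2-oxoglutarate dehydrogenase complex and not to the ribosome, was at 28.3, 29.6 and 34.5 CPM in WT and at 23.5, 19.0, 17.9 and 29.3 CPM in DKO. Its DKO replicate 4 lies inside the WT range, and its log2 fold change was -0.46 (SE 0.19, edgeR adjusted p = 0.208).

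Both subunits had similar median differences. The median log2 fold change was -0.49 over 48 Mrpl members and -0.42 over 29 Mrps members, a difference of -0.07. An unadjusted p under 0.05 was reached by 31 Mrpl (64.6%) and 18 Mrps members (62.1%). Without WT replicate 4 those counts were 20 of 48 and 7 of 29, against 4.45% of all genes. In that fit 13 and 7 large-subunit members, with and without a bacterial counterpart, and 5 and 2 small-subunit members reached that p. Mrpl members outweighed Mrps members in summed CPM by a ratio of 2.02, 2.04 and 1.93 in WT replicates 1, 2 and 4. The same ratio was 1.93, 2.17, 2.04 and 2.03 in DKO replicates 1 to 4, so the libraries of the groups intermix. The difference of the median deviations, Mrpl minus Mrps, was between -0.11 and 0.05 over the DKO libraries, a spread wider than the difference itself. Placing Mrps18a and Mrps30 in the large subunit and leaving out Mrps36 gave 50 of 50 large-subunit and 24 of 26 small-subunit genes with a fold change below 0, at medians of -0.48 and -0.45.

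The share of members whose groups separated was higher among Mrpl genes. Every DKO library was below every WT library for 35 Mrpl members (72.9%) and for 11 Mrps members (37.9%), against 9.04% of all tested genes. DKO replicate 1 was above the lowest WT library for 10 of 48 Mrpl and 15 of 29 Mrps members. DESeq2 called 18 Mrpl and 5 Mrps members. No test of this difference was run.

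Ribosomal proteins that carry other names were set beside these. Of 5 genes, 4 had a fold change below 0 and 3 an unadjusted p under 0.05, with a median of -0.60, or -0.38 without WT replicate 4. Chchd1, a small-subunit protein, was at 88.0, 111 and 257 CPM in WT and at 78.9, 57.2, 52.8 and 67.3 CPM in DKO. Its groups are separate, and its log2 fold change was -1.25 (SE 0.33, edgeR adjusted p = 0.163, DESeq2 adjusted p = 0.0218), or -0.64 without WT replicate 4. Aurkaip1, the gene of the 5 with the highest CPM, averaged 211 ± 66.0 CPM over WT (SD, n = 3), against 133 ± 16.2 CPM over DKO (SD, n = 4). Its log2 fold change was -0.66 (SE 0.21), or -0.38 without WT replicate 4. Ptcd3, a small-subunit protein of the pentatricopeptide repeat family, was the 1 with a positive value, 0.25 (SE 0.15), or 0.15 without that library.

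The mitochondrial ribosomal RNAs were mt-Rnr2 of the large and mt-Rnr1 of the small subunit. For mt-Rnr2 the levels were 2342, 1869 and 4031 CPM in WT and 1778, 1117, 1002 and 1528 CPM in DKO, so every DKO library was below every WT library. Its log2 fold change was -1.02 (SE 0.29), or -0.64 without WT replicate 4 and also -0.64 with the trend on exon length and GC content removed, a fit described with transcript length further on. For mt-Rnr1 they were 406, 288 and 570 CPM in WT and 282, 242, 218 and 383 CPM in DKO, where DKO replicate 4 lies inside the WT range. The log2 fold change of mt-Rnr1 was -0.58 (SE 0.26, edgeR adjusted p = 0.226), or -0.31 without WT replicate 4 and -0.12 with that trend removed. Of 7 measured messenger RNAs of the mitochondrial genome 0 reached an unadjusted p under 0.05 in either direction, with a median of 0.00 and 4 below 0. With the exon length trend removed 0 of the 7 were below 0 and the median was 0.34, and with the principal transcript trend it was 0.28. The most abundant, mt-Nd1, had -0.17 (SE 0.23), or -0.08 without WT replicate 4, and mt-Co1, with the smallest p, had -0.23 (SE 0.24).

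Nuclear genes that act around the mitochondrial ribosome had medians of -0.21 to 0.01, and the difference from the members was not tested. Their principal transcripts are longer, with medians of 2623 nt (translation factors), 3336 nt (synthetases), 1804.5 nt (assembly) and 2431 nt (transcription), against 1316 nt for the members. With the principal transcript trend removed, the medians of translation factors, synthetases and transcription genes were -0.01, -0.02 and -0.08, against -0.27 for the members. Of 13 translation factors, 6 had a fold change below 0, 2 reached an unadjusted p under 0.05 lower and 2 higher, and the median was 0.00. Gfm2, an elongation factor G of ribosome recycling, was at 85.5, 90.5 and 61.9 CPM in WT and at 102, 121, 146 and 112 CPM in DKO, above every WT library, with a log2 fold change of 0.60 (SE 0.19). Gfm1, the elongation factor G of chain growth and the most abundant of the 13, had 0.25 (SE 0.16), or 0.17 without WT replicate 4. Mrrf, the ribosome recycling factor, had -0.46 (SE 0.16). Of 17 mitochondrial aminoacyl-tRNA synthetases, 8 were below 0 and the median was 0.01. The 1 synthetase with an unadjusted p under 0.05 was Lars2, at -1.38 (SE 0.25). The Lars2 count was 2.92 to 3.07 times that of the noncoding Gm15564, a gene on another chromosome, in every library, so the origin of its reads is uncertain. Of 16 assembly factors, 13 were below 0 and 4 reached an unadjusted p under 0.05, with a median of -0.21, or -0.10 with the principal transcript trend removed. Mrm2, which methylates the large ribosomal RNA, averaged 19.0 ± 3.56 CPM over WT (SD, n = 3), against 12.9 ± 1.58 CPM over DKO (SD, n = 4), with separate groups and a log2 fold change of -0.56 (SE 0.18, edgeR adjusted p = 0.163). Dhx30, an RNA helicase and the most abundant assembly factor, had 0.23 (SE 0.15). Of 6 genes of mitochondrial transcription 4 were below 0, 2 reached an unadjusted p under 0.05 lower and 1 higher, and the median was -0.05. Mterf2 had -0.67 (SE 0.25), or -0.36 without WT replicate 4, and Tfam, which packs and transcribes mitochondrial DNA, had -0.10 (SE 0.14).

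Lower levels were also found for most genes of the cytoplasmic ribosome and the respiratory chain, to an extent that depended on the fit. Of 80 cytoplasmic ribosomal protein genes 79 had a fold change below 0, 52 at an unadjusted p under 0.05 (65.0%), with a median of -0.58. Without WT replicate 4 there were 79 below 0 and 23 at that p, with a median of -0.39. With the principal transcript trend removed these numbers were 68, 28 and -0.27. Of 79 nuclear genes of the respiratory chain 77 were below 0, 49 at that p (62.0%), with a median of -0.56. Without WT replicate 4 there were 75 and 19, with a median of -0.35, and with the principal transcript trend removed 70 and 22, with a median of -0.25. Principal transcripts of the 2 groups are short, with medians of 843 and 765 nt.

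Regulators of mitochondrial gene expression had a median of 0.26 over 8 genes, 2 of them below 0, and their median principal transcript is 4322 nt. The median was 0.05 with the exon length trend removed and 0.08 with the principal transcript trend removed, each with 4 of 8 below 0. Among them Ppargc1a, a coactivator of mitochondrial biogenesis, averaged 33.6 ± 0.971 CPM over WT (SD, n = 3), against 48.3 ± 5.69 CPM over DKO (SD, n = 4), with a log2 fold change of 0.53 (SE 0.15, edgeR adjusted p = 0.163, DESeq2 adjusted p = 0.0367). Gabpa and Nrf1, which encode factors that bind the ETS and NRF1 letters, had 0.42 (SE 0.17) and 0.40 (SE 0.15). Gabpb1, which encodes another subunit of GABP, had 0.02, or -0.17 without WT replicate 4. Yy1, whose product binds the YY1 letters, went the other way with -0.39, or -0.52 without WT replicate 4. Nrf1 had 0.15 with the exon length trend removed and 0.48 with the principal transcript trend removed. Under the latter Ppargc1a had 0.31 and Gabpa 0.27. The estrogen-related receptor Esrra was at 29.8, 29.6 and 56.3 CPM in WT and averaged 26.1 ± 1.79 CPM over DKO (SD, n = 4). Its log2 fold change was -0.56 (SE 0.22), or -0.19 without WT replicate 4.

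**Figure D4:**
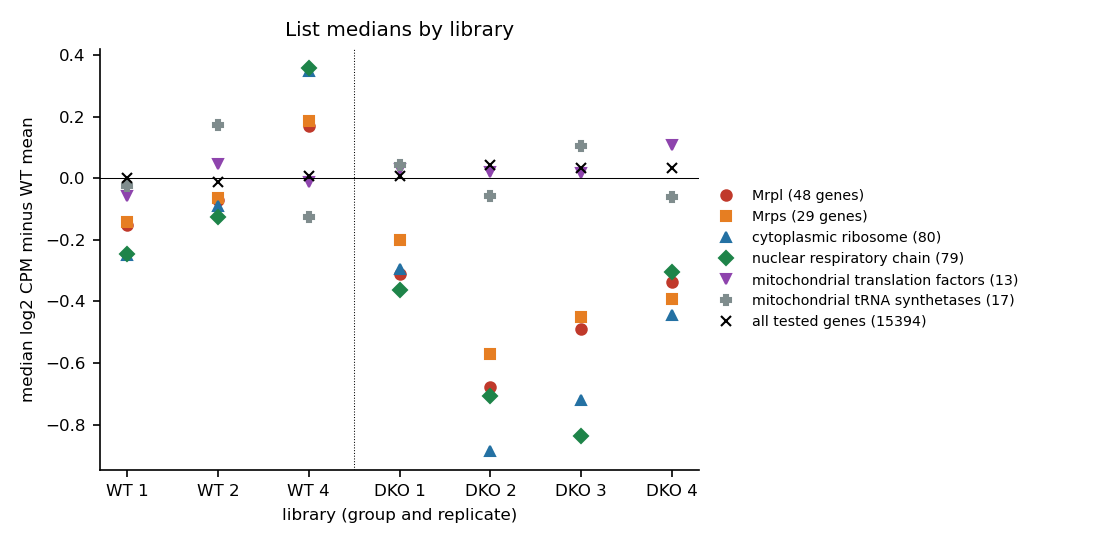
Median over each gene list of log2 CPM minus the WT mean, in each of the 7 libraries, for Mrpl, Mrps, cytoplasmic ribosome, nuclear respiratory chain, mitochondrial translation factors, mitochondrial tRNA synthetases and all tested genes. Both ribosomes and the respiratory chain are highest in WT replicate 4 and below 0 in all 4 DKO libraries, while the translation factors stay between -0.06 and 0.11. Both ribosomes and the respiratory chain are also below 0 in WT replicates 1 and 2. The cytoplasmic ribosome is at -0.25 in WT replicate 1 and at -0.30 in DKO replicate 1.

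Markers of kidney cell types moved with the groups to differing extents, and their part in the result was not tested. All 51 markers passed the filter on low counts, so 0 of them were at 0 throughout. The median log2 fold change was 0.14 over 10 proximal tubule markers (4 below 0), -0.54 over 5 loop of Henle markers (4 below 0) and 0.67 over 5 podocyte markers (1 below 0). Summed proximal tubule markers went against their median: they were 18241 to 21457 CPM over WT and 15414 to 18128 CPM over DKO, with no overlap. Their log2 fold changes ran from -1.74 for Kap to 0.60 for Cubn, with 6 of the 10 above 0, and a sum weights the abundant genes most. The median was -1.0 over 7 immune markers, of which 6 were below 0, and -0.31 without WT replicate 4. Summed immune markers were 114 to 236 CPM over WT and 55.3 to 139 CPM over DKO, and summed podocyte markers 84.5 to 96.1 CPM over WT and 99.8 to 128 CPM over DKO. Summed loop of Henle markers were 6043 to 9911 CPM over WT and 4394 to 6836 CPM over DKO. Of the 5 erythroid markers, all 5 had a fold change below 0 with a median of -0.43, and their sum was 116 to 897 CPM over WT and 214 to 425 CPM over DKO. Over the 9 distal tubule and collecting duct, 5 endothelial and 5 fibroblast or mesangial markers the medians were -0.12, 0.15 and 0.01, with 6, 1 and 2 members below 0.

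Transcript length moved with the fold change over all genes, and its part in the result was not tested. Over all tested genes with a principal transcript of at most 750 nt the median log2 fold change was -0.48 (996 genes), and over those above 4000 nt it was 0.26 (4248 genes). The members have a median principal transcript of 1316 nt, against 2727 nt over all tested genes. Members of at most 750 nt had a median of -0.50 (12 genes) and members above 4000 nt of -0.50 (8 genes). Between 2000 and 4000 nt the members' median was -0.46 (17 genes) and that of all genes 0.06 (5970 genes). Spearman's rho between length and fold change was 0.45 over all tested genes and 0.20 over the 77 members, as a description across genes that share the same libraries.

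**Figure D5:**
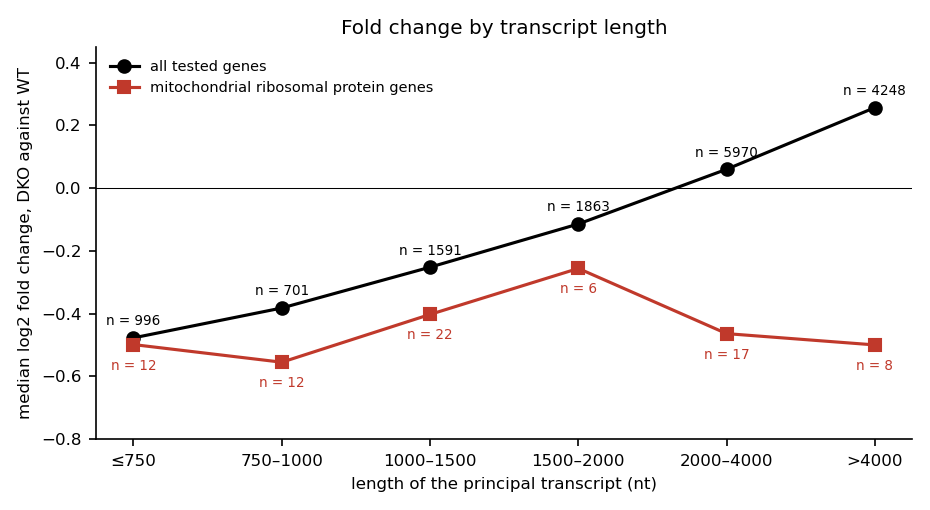
Median log2 fold change of DKO against WT by length of the principal transcript, for all tested genes (black) and for the 77 members (red), with the number of genes at each point. Over all genes the median runs from -0.48 to 0.26, while the members lie between -0.55 and -0.26 in every length class.

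With the trend on exon length and GC content removed within each library, 72 members had a fold change below 0, against 51.2% of all genes, the median was -0.35, and 38 reached an unadjusted p under 0.05, against 9.89% of all genes. With the trend taken on the length of the principal transcript, 66 members were below 0, against 51.3% of all genes, the median was -0.27, and 32 reached that p (41.6%), against 8.91% of all genes. Without either trend those numbers were 75, -0.47 and 49. Single members moved more: 26 values shrank by over 1.5 times with the exon length trend removed and 41 with the principal transcript trend. Mrpl34, a short gene, went from -0.50 to -0.17 and -0.13, and Mrpl22 from -0.71 to -0.41 and -0.34, whereas Mrpl57 had -0.75 and -0.87, Mrpl12 -0.90 and -0.91, and Mrps16 -0.65 and -0.75. Exonic overlap with another gene was present for 32 members, of which 31 were below 0 and 23 reached that p. The 45 members without any overlap counted 44 and 26. Among the members sharing at least 20% of exonic bases were Mrps34, with 77.8% shared with Mapk8ip3 and Nme3, and Mrps25, with 69.8% shared with Nr2c2, and their counts are uncertain.

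Members with the ETS letters in the start window had a median log2 fold change of -0.56 (25 genes, 24 below 0), and the 43 without had -0.41 (42 below 0). With and without the NRF1 letters the medians were -0.49 (16 genes) and -0.46 (52 genes). The 8 members with the YY1 letters had a median of -0.27, and 2 of them reached an unadjusted p under 0.05, against 42 of the 60 without. These differences were not tested.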

How the data were processed

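The authors deposited raw read counts per Ensembl gene, a filtered copy of those counts, and a TMM-scaled signal table (CPM on adjusted library sizes). Reads were aligned with STAR 2.5.2a and the builds GRCm38 (mm10) and GRCh38 are listed, per the submitters' processing notes, which also name edgeR, limma and DESeq2. The role of GRCh38, the counter of reads and its treatment of strand were not given in the sources used here. Libraries were made with a kit that does not mark the strand, per the labels' protocols. The signal table served to choose the genes by name, and CPM values were computed from the raw counts; for the chosen genes they differed from the deposited values by at most 0.653%.

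DKO and WT were compared by edgeR's quasi-likelihood test (version 4.0.16, R 4.3.3, robust, TMM), two-sided, over 15394 genes kept by filterByExpr (minimum count 10, minimum total 15), with Benjamini-Hochberg adjustment and a threshold of 0.05. The 24 rows that are not genes held at most 0.000697% of counts and were left out. DESeq2 1.42.0, limma 3.58.1 (voom), DESeq2-style size factors, no low-count filter, a replicate block, length and GC trends (mgcv 1.9.3) and leaving out each library were alternatives. Exon lengths come from GENCODE on GRCm38, and promoters from RefSeq.

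The gene set and the gene lists were chosen with earlier results of these data known. Named genes are, in each class of subunit and origin, the 3 with the smallest p and the 2 with the highest level per kb. The 2 lowest members, the highest fold change per subunit, members whose name and place differ and the S18 paralogs are named too. From each mitochondrial list the gene with the smallest p and the one with the highest CPM are named, except for the respiratory chain, which is given by counts. Added after their values were seen were mt-Rnr1, Mrpl10, Mrpl45, Mrpl58, Mrps11, Mrps25, Mrps34, Mrrf, Ptcd3, Nrf1, Gabpa, Gabpb1, Yy1, Esrra, Kap and Cubn. Within each group every library carries a different number per the labels, so each library was taken as a separate animal and a replicate.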

Additional observations from a re-analysis of the deposited data

How the results depend on the processing

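The count of all genes past the adjusted threshold was 0 in the main edgeR test (1732 genes lower and 1518 higher at an unadjusted p under 0.05), 672 with DESeq2, 66 without the low-count filter, 0 to 7 when 1 library was left out (7 without DKO replicate 1), and 1 with the length and GC trend removed together with the replicate block. The 49 members lower at an unadjusted p became 30 in that last fit, 32 with the principal transcript trend (chosen after seeing the data), and 27 to 50 when 1 library was left out, the lowest without WT replicate 4. The median over members was -0.27 with the principal transcript trend and -0.53 to -0.33 over the fits without 1 library. The Mrpl minus Mrps median was 0.027 with the exon length and GC trend removed, -9.4e-04 with that trend and the block, 0.0060 with the principal transcript trend, and -0.07 to -0.04 without 1 library. Of 27 named members, signs turned for Mrpl37 (0.083) and Mrps18a (0.0024) with the principal transcript trend, for Mrps18b with DESeq2 (-0.0053), DESeq2-style size factors (-0.0055), the replicate block (-0.0071) and without 1 library (-0.066 to 0.15), and for Mrps2 without 1 library (-0.016 to 0.23, the lowest without WT replicate 4). The cause was not tested. DESeq2 called 13 of the 27, against 23 of all 77 members and 672 of 15394 tested genes. Part of the 27 were named for a small p in these same data. The replicate block, on numbers that same-numbered libraries do not bear out as pairs (correlations of deviations -0.13, 0.16 and 0.14), called 0 genes and left 38 members at an unadjusted p, with a median of -0.40, and WT replicate 1 correlated best with DKO replicate 2. Counts per member were 109 to 9397 reads. Counting error was not set against the spread between animals for each member. With 3 and 4 animals that spread limits the precision.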

Other observations

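Mrpl53, a further large-subunit gene, was not in the deposited TMM-scaled table and received 2 reads in all, 1 in each of 2 libraries. It lies at chr6:83109040-83109939 (plus strand, GRCm38), and 695 of its 790 exonic bases (88.0%) are shared with the gene Gm42688. Whether this sharing lowered its count was not tested, and the count is not taken as a measure of its expression. Pseudogenes of the members were also counted: Mrpl23-ps1 averaged 10.2 ± 3.63 CPM over WT (SD, n = 3) against 6.97 ± 1.34 CPM over DKO (SD, n = 4), beside 18.3 ± 3.69 and 13 ± 1.56 CPM for Mrpl23, and reads of a near-identical pair can be split between them. Of the 13 messenger RNAs of the mitochondrial genome, 6 were at or near 0 in all libraries, among them mt-Co2 and mt-Atp6, which kidney cells express strongly, so these zeros describe the table and not the tissue.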
